A study of Mus musculus with 8 samples.

Results

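The miRNAs described here are mmu-miR-221 and mmu-miR-222, a pair encoded side by side on the mouse X chromosome. They were taken by name, so that 2 of the 1040 named mouse probes of the deposited table are described, and both were among the 309 miRNAs tested. They were measured in cell populations sorted from the thymus of 4-week-old female NOD wildtype mice, an inbred strain that develops autoimmune diabetes. Medullary thymic epithelial cells (mTECs, 3 samples) were sorted as CD45-, EpCAM+, MHC II+, Ly51- cells, and cortical thymic epithelial cells (cTECs, 2 samples) as CD45-, EpCAM+, MHC II+, Ly51+ cells. CD45+ EpCAM- cells (3 samples), which in the thymus are mostly thymocytes, served as the reference. The labels give no allele and no treatment that set the groups apart. Stromal cells were isolated from pooled thymi of 10 to 12 mice, so that each value stands for a pool and not for an animal. Total RNA was labelled with a single dye (Cy3) and hybridised to 8 arrays of 1 slide.

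miRNAs are short RNAs that guide the silencing complex to messenger RNAs, mainly by pairing of the seed near their 5′ end, and lower the output of those messengers. miR-221 and miR-222 are processed from a common transcript and carry the same seed. In other cells they are known to repress Kit, the receptor for stem cell factor that marks early blood and thymic progenitors, and the cell-cycle inhibitors Cdkn1b (p27) and Cdkn1c (p57), and they have been studied in endothelium and in red cell development.

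The mature sequences are shown because the shared seed defines the pair, while the rest of each sequence is what lets the array tell them apart. Capitals mark the seed, bases 2 to 8. Sequences and positions are from RefSeq on GRCm38.p6. miR-221-3p lies at chrX:19146307-19146329 and miR-222-3p at chrX:19146901-19146923, both on the minus strand. The third sequence, miR-1928 from chr1:74206562-74206578 on the minus strand, is the only other one with this seed among the 1738 mature mouse miRNAs of that table.
mmu-miR-221-3p: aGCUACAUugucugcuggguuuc
mmu-miR-222-3p: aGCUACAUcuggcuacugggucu
mmu-miR-1928: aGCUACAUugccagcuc

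miR-221-3p and miR-222-3p were both 23 bases long. They were identical over the first 8 bases and, counted from the 5′ end, at 11 of 23 positions (47.8%). The hairpins they are cut from are shown next, with the mature 3p strand in capitals. The Mir221 hairpin lies at chrX:19146294-19146388 and the Mir222 hairpin at chrX:19146893-19146971, with 504 bases between them.
Mir221 hairpin: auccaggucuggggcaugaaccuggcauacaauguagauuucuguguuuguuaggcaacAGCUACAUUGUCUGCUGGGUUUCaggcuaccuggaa
Mir222 hairpin: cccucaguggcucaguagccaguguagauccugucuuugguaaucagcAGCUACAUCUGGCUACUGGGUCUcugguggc

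The array read each miRNA with a single probe sequence, printed at 5 spots. Capitals mark the bases complementary to the mature miRNA, and the lower case bases lie outside that match. The miR-221 probe covered bases 1 to 23 of its target and the miR-222 probe bases 1 to 22. Both therefore pair with the shared seed and are distinguished by the part that follows it.
mmu-miR-221 probe: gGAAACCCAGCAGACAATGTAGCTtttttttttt
mmu-miR-222 probe: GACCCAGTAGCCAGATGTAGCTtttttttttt

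Signals are given in arbitrary units after background subtraction, with each array divided by the 75th percentile of the 65 mouse probes that were well above background on all 8 arrays. The arrays differed in brightness before this step. That percentile was 8323 to 11408 on the CD45+ arrays, 4213 to 11503 on the mTEC arrays, and 2910 and 1364 on the cTEC arrays. Of the mouse probes, 169 to 229 stood well above background on CD45+, 236 to 325 on mTEC, and 122 and 98 on cTEC arrays. The lowest scaled signal that still stood well above background, called the limit of an array, was 342 and 621 on the cTEC arrays and 67.0 to 223 on the other 6. With sorted populations, fewer cells of a type and less RNA per cell cannot be told apart.

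miR-221 was present in CD45+ cells and mTECs and was not detected in cTECs. Its scaled signal was 1295, 1226 and 1081 on the CD45+ arrays, a mean of 1201 ± 109 (SD, n = 3). On the mTEC arrays it was 932, 915 and 879, a mean of 909 ± 26.9 (SD, n = 3). On the cTEC arrays it was 196 and 192, under the limit of either array. All 5 spots were well above background on each CD45+ and mTEC array and none on either cTEC array. The CD45+ and mTEC signals did not overlap under this scaling, but did before scaling and with these arrays scaled alone. How many other miRNAs showed no overlap was not counted.

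miR-222 showed the same detection pattern. Its scaled signal was 833, 766 and 689 on the CD45+ arrays, a mean of 763 ± 72.4 (SD, n = 3). On the mTEC arrays it was 521, 526 and 621, a mean of 556 ± 55.9 (SD, n = 3). On the cTEC arrays it was 138 and 236, again not well above background on either. Its CD45+ and mTEC signals likewise did not overlap under this scaling, but did before scaling and with these arrays scaled alone. All 3 mTEC values lay under the limit of cTEC replicate 2, lower than any signal that stood well above background on that array.

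**Figure D1:**
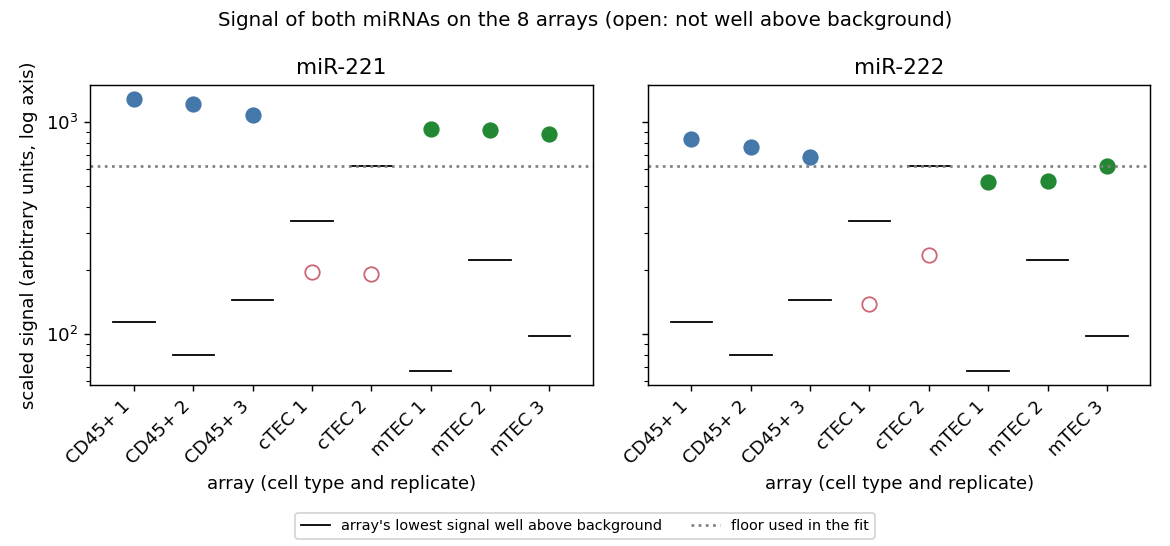
Scaled signal (arbitrary units, log axis) of miR-221 and miR-222 on each of the 8 arrays, blue for CD45+, red for cTEC and green for mTEC. Filled points were well above background and open points were not, the short bar is the limit of that array, and the dotted line is the floor of 621 set on the signal before the test. The 3 CD45+ and 3 mTEC points are filled for both miRNAs, and the 2 cTEC points are open and lie under the bars.

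The comparisons with cTECs asked whether cortical epithelium carries less of the pair. Because neither miRNA stood well above background there, folds are given against the limits of the cTEC arrays under the scaling used. These limits are no strict bound. On cTEC replicate 1 miR-203 at 405, and on cTEC replicate 2 miR-145 at 631, exceeded them without standing well above background. Against the limits, miR-221 was 2.60-fold higher in CD45+ cells and 1.97-fold higher in mTECs. miR-222 was 1.65-fold higher in CD45+ cells. For miR-222 in mTECs the fold was 1.20, and it rested on cTEC replicate 1, since against cTEC replicate 2 alone the ratio was 0.892. With the arrays of the compared groups scaled alone, these folds were lower. They were 2.51 and 1.73 for miR-221 and 1.60 and 1.06 for miR-222, each in CD45+ cells and in mTECs.

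One limma model was fitted over all 8 arrays, with signals under 621 set to that floor. The differences are on the log2 scale, and those that involve cTECs, or miR-222 in mTECs, are compressed by the floor. Both miRNAs were called lower in cTECs than in CD45+ cells at an adjusted p under 0.05, where 20.1% of the 309 tested miRNAs were. Of the 309, 83 lay at the floor on every array and could not be called. Shares of the 309 therefore understate those among miRNAs above the floor. The log2 difference was -0.94 for miR-221 (SE 0.077, limma adjusted p = 0.00019) and -0.29 for miR-222 (SE 0.068, limma adjusted p = 0.0216). The size depended on the processing, at -2.98, -3.31 and -2.75 for miR-221 and -2.31, -2.65 and -2.16 for miR-222 with the percentile over all mouse probes, no normalization and the lowest floor. The call for miR-221 remained under each of the 16 other ways of processing that gave a value and without each array in turn. That for miR-222 was lost under 5 of the 16, among them the fit with the replicate block (limma adjusted p = 0.0539). It was also lost without CD45+ replicate 2 (-0.29) or cTEC replicate 1 (-0.25).

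Between the epithelial populations, miR-221 was higher in mTECs than in cTECs, and the test of miR-222 did not call a difference. Of the pair, 1 was called higher in mTECs, where 16.2% of the tested miRNAs were. The log2 difference was 0.55 for miR-221 (SE 0.077, limma adjusted p = 0.00317), and it passed in the same 16 alternatives and without each array in turn. For miR-222 it was 0.030 (95% interval -0.14 to 0.20, limma adjusted p = 1). That interval is no measure of likeness, because on all 5 arrays miR-222 stood at or under the floor. Of the 16 alternatives, 5 called miR-222 higher in mTECs, from 0.26 with the deposited log2 table to 1.71 with the lowest floor. The difference of miR-221 ranged over the 16 from 0.35 with the groups scaled alone to 2.35 with the lowest floor. The floor was set by cTEC replicate 2. Without that array the miR-222 difference was 0.53 (limma adjusted p = 0.00735), and that of miR-221 was 1.25. Both are then differences from a floor with 1 cTEC array left, which was assumed to vary like the other groups.

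The comparison of mTECs with CD45+ cells asked how medullary epithelium differs from the blood cells around it, and here the answer depended on how the arrays were scaled. Both miRNAs were called lower in mTECs, where 14.9% of the tested miRNAs were. The log2 difference was -0.40 for miR-221 (SE 0.069, 95% interval -0.57 to -0.23, limma adjusted p = 0.00627) and -0.26 for miR-222 (SE 0.061, 95% interval -0.41 to -0.11, limma adjusted p = 0.0255). With each of the 3 lower floors the difference of miR-222 was -0.45, outside that interval. Without the floor, the mean in mTECs was 75.7% of that in CD45+ cells for miR-221 and 72.9% for miR-222. Before scaling, the signals overlapped, with miR-221 at 1558 to 2422 on CD45+ and 668 to 1856 on mTEC arrays, and miR-222 at 993 to 1527 and 384 to 1038.

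The 65 probes used for scaling are limited by the dim cTEC arrays. When the 6 CD45+ and mTEC arrays were scaled alone, 120 probes qualified, and both differences turned. miR-221 then stood at 1547, 1330 and 1274 on CD45+ and at 1690, 1619 and 1509 on mTEC arrays, which overlapped. miR-222 stood at 996, 831 and 811 on CD45+ and at 945, 931 and 1065 on mTEC arrays, which overlapped as well. With these arrays also fitted alone, at their own floor of 394, the log2 difference was 0.22 for miR-221 (limma adjusted p = 0.151) and 0.16 for miR-222 (limma adjusted p = 0.352). In that fit the median difference moved from 0 to 0.13 over all tested miRNAs, and to 0.25 over those not at the floor on all arrays. Relative to these medians the difference of miR-221 was 0.091 and -0.031, and that of miR-222 was 0.037 and -0.085. With the percentile taken over all mouse probes, both calls stood at larger sizes, -1.24 for miR-221 (limma adjusted p = 0.0362) and -1.29 for miR-222 (limma adjusted p = 0.0334), and with quantile normalization miR-222 stood at -0.75 (limma adjusted p = 0.0362). The difference lay under 0 in 23 of the 24 alternatives, arrays left out included, for each miRNA. Of the 16 other ways of processing, the call passed in 12 for miR-221 and in 8 for miR-222. It was lost for both miRNAs with no normalization and with the lowest floor. The order of mTECs and CD45+ cells was not settled for either miRNA.

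Leaving out cTEC replicate 2, which changes the scaling and the floor but no array of this comparison, gave -0.084 for miR-221 (limma adjusted p = 0.637) and -0.14 for miR-222 (limma adjusted p = 0.172). The call for miR-221 was also lost without cTEC replicate 1 (-0.35) or mTEC replicate 2 (-0.33). That for miR-222 passed without CD45+ replicate 1 (-0.20) or CD45+ replicate 3 (-0.30) and was lost without any of the other 6 arrays. With the replicate block its limma adjusted p was 0.0723.

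**Figure D2:**
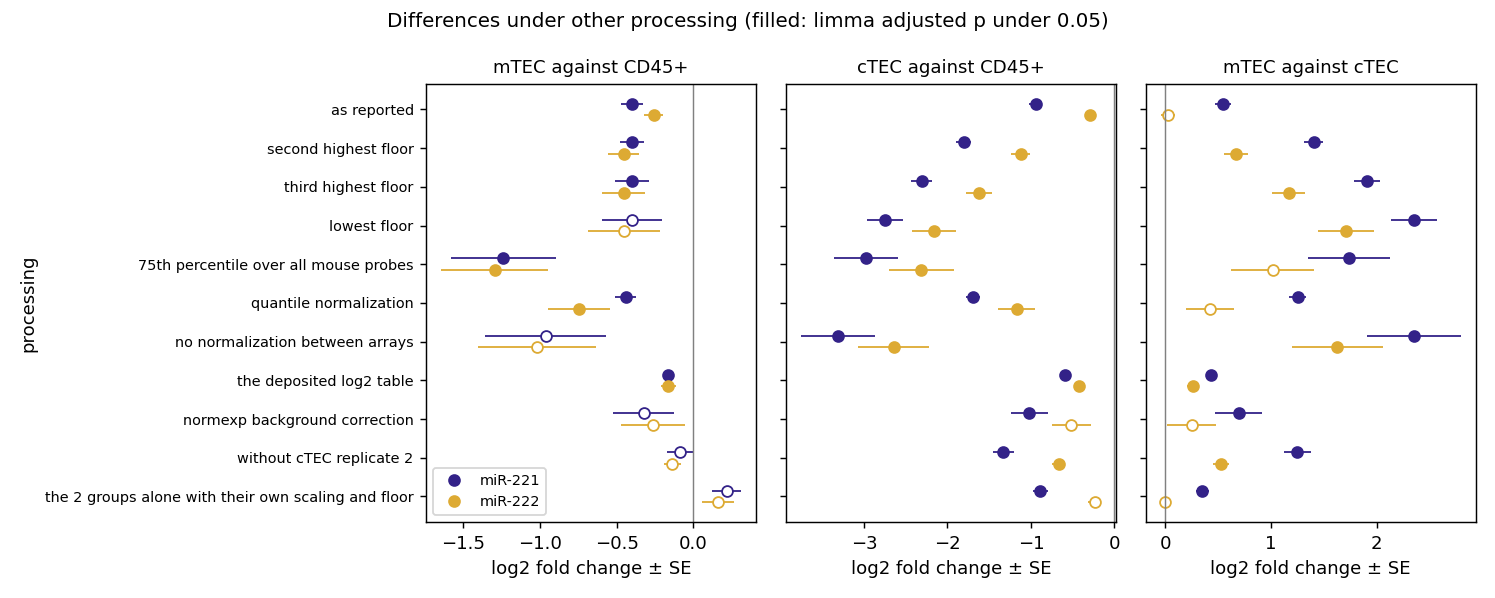
log2 fold changes ± SE of miR-221 (dark blue) and miR-222 (yellow) in the 3 comparisons, as reported at the top and under other processing beneath it. Filled points passed an adjusted p under 0.05 in limma. In the mTEC against CD45+ panel the bottom setting, with these arrays scaled alone, lies to the right of 0 for both miRNAs at 0.22 and 0.16, while miR-221 stays clear of 0 in all settings of the other panels.

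The mean log2 signal with the floor, set at 9.28, was 10.22 for miR-221 in CD45+ cells, 9.82 in mTECs and 9.28 in cTECs. For miR-222 it was 9.57, 9.31 and 9.28. The median log2 difference over all tested miRNAs was 0 in each comparison. The floor holds it there, since 83 of the 309 lay on it on every array and others in both compared groups. With the lowest floor the medians were 0.45 for mTEC against CD45+, 0.86 for cTEC against CD45+ and -0.33 for mTEC against cTEC.

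**Figure D3:**
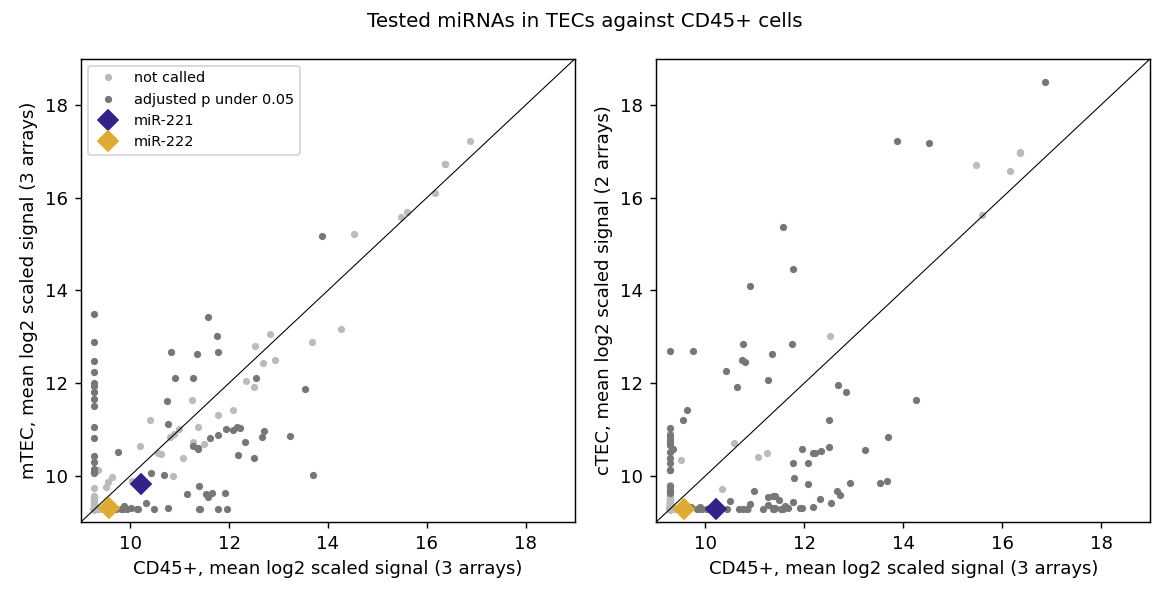
Mean log2 scaled signal of each tested miRNA in mTECs (left, 3 arrays) and cTECs (right, 2 arrays) against CD45+ cells (3 arrays), with the line of equality. Dark grey points passed an adjusted p under 0.05. miR-221 at 10.22 on the x axis and miR-222 at 9.57 lie under the line in both panels, close to it for mTECs and on the floor of 9.28 for cTECs.

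Whether the pair moved together was asked through the log2 signal of miR-222 minus that of miR-221 within each array. Its size on 1 array carries no meaning, since the probes differ, but its change between groups does. Without a floor it was -0.64, -0.68 and -0.65 on the CD45+ arrays and -0.84, -0.80 and -0.50 on the mTEC arrays, so that the CD45+ values lay inside the range of the mTEC values. The groups differed by -0.059 (two-sided exact permutation p = 0.6). With the floor, which lifts miR-222 in mTECs, the difference was 0.14 (two-sided exact permutation p = 0.1, the smallest that 3 arrays against 3 allow). In the log2 table of the authors it was 0.0024 (two-sided exact permutation p = 0.9). A change in the ratio of the pair between CD45+ cells and mTECs was not resolved. No ratio was formed in cTECs.

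Markers of blood cells were measured beside the pair. miR-150, miR-223 and both strands of miR-142 (3p and 5p), which mark blood cells, were 4 of 4 well above background on all CD45+ arrays, 2 of 4 on all mTEC arrays and 1 of 4 on both cTEC arrays. Their summed scaled signal was 8516 to 11349 in CD45+ cells, 875 to 1185 in mTECs and 1144 to 2349 in cTECs. On the cTEC arrays 3 of the 4 were well above background on neither array, so that this sum sets no order between cTECs and mTECs. In mTECs these markers stood at 8.84% (miR-150), 15.7% (miR-223), 10.4% (miR-142-3p) and 14.9% (miR-142-5p) of their CD45+ means, and miR-221 at 75.7% and miR-222 at 72.9%. With the 6 CD45+ and mTEC arrays scaled alone, the markers stood at 13.6%, 24.0%, 16.3% and 23.1% in the same order, miR-221 at 116% and miR-222 at 111%. Each share of the pair was larger than each marker's under both scalings, and the part of blood cells in the mTEC signal of the pair was not tested.

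Other lists checked the labels of the sorted cells. Of 7 epithelial miRNAs (miR-205, miR-203, miR-429, miR-141, miR-200c, miR-200b and miR-200a), 7 were well above background on all mTEC arrays, 3 on both cTEC arrays and none on all CD45+ arrays. The summed signal of that list was 36800 to 39058 in mTECs, 4442 to 8620 in cTECs and 623 to 704 in CD45+ cells. The endothelial miR-126-3p, which comes from a cell type known to hold miR-221 and miR-222, was highest on the cTEC arrays under this scaling, where the pair was not detected. Before scaling it was 1318 and 239 on the cTEC arrays, 208 to 1002 on the mTEC arrays and 358 to 476 on the CD45+ arrays, so that cTEC replicate 2 was not above the other groups. Its scaled mean was 1814 in cTECs, 401 in mTECs and 232 in CD45+ cells, and with miR-126-5p, above background on no array, the list summed to 1527 to 2755, 497 to 550 and 212 to 295. Mesenchymal markers, led by miR-145, summed to 2934 to 3502 in mTECs, 1068 to 1275 in cTECs and 108 to 193 in CD45+ cells, with 2 of 4 above background on no mTEC array. The erythroid miR-451 and miR-486 were above background on no array. The part of endothelial and mesenchymal cells in the signal of the pair was not tested.

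The opposite strands of both hairpins were also on the array and were not detected. miR-221* was well above background on 0 of 8 arrays, at scaled signals of 15.6 to 241, and miR-222* on 0 of 8, at -17.9 to 161. miR-1928, which shares the seed, was well above background on 0 of 8 arrays, at -37.2 to 33.3. At this brightness a strand present at a low level would not have been seen.

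The 5 spots of each probe gave the technical error within an array. On the 6 arrays where the probes were detected, miR-221 spots deviated from the mean of their array by -0.19 to 0.28 on the log2 scale, and no spot was the highest on more than 3 arrays. For miR-222 the same spot, at row 93 and column 38, was the highest on 6 of 6 arrays, by 0.21 to 0.42 over the mean of the 5. This offset was shared by CD45+ and mTEC arrays. With the median of the spots in place of the mean, the log2 difference of miR-222 between mTECs and CD45+ cells was -0.22, against -0.26 with the mean.

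**Figure D4:**
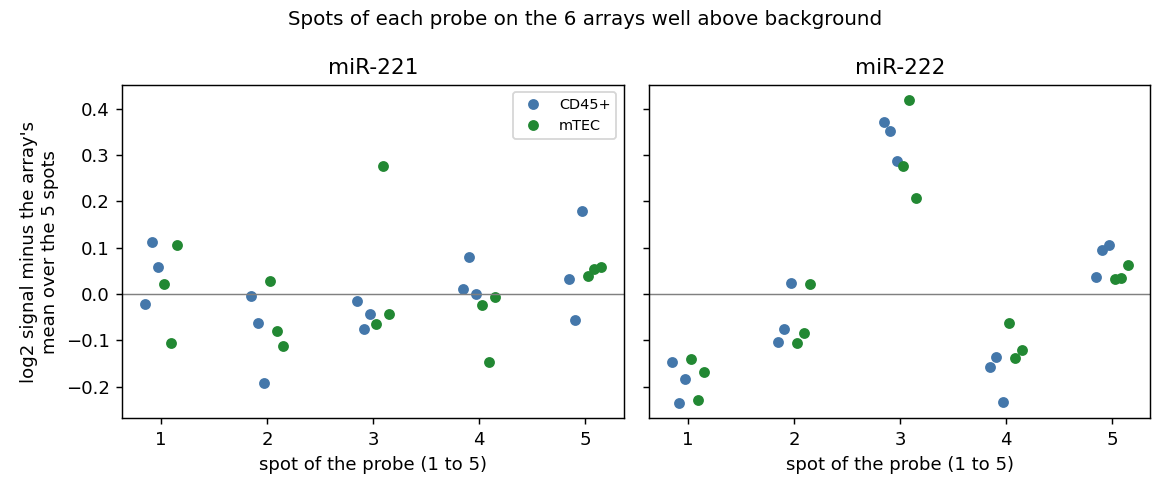
log2 signal of each of the 5 spots minus the mean of the 5 on the same array, for the 3 CD45+ (blue) and 3 mTEC (green) arrays. The third spot of miR-222 lies at 0.21 to 0.42 on all 6 arrays, and the spots of miR-221 show no such order.

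The miRNAs whose profiles were most like those of the pair were sought among the 65 that were well above background on all 8 arrays. For miR-221 they were let-7g (Pearson r = 0.980 over 8 arrays), let-7i (r = 0.978) and miR-155 (r = 0.977). These r are of values with the floor, and both cTEC values of miR-221 stood on it. They and their order therefore do not rest on a measured cTEC level of miR-221. Of the 65 miRNAs, 12 had an r over 0.9 with it. The let-7 miRNAs are broadly expressed and restrain growth, and miR-155 is induced by immune activation. let-7g had mean scaled signals of 3538 in CD45+ cells, 1906 in mTECs and 1015 in cTECs. let-7i had 4317, 2066 and 905. miR-155 had 2915, 1697 and 583. In mTECs against CD45+ cells miR-155 did not pass (log2 difference -0.80, limma adjusted p = 0.0598), and for miR-221 the order of these groups turned with the scaling.

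For miR-222, with the floor, the highest r were those of miR-150 (r = 0.920), let-7d (r = 0.908) and let-7f (r = 0.899). miR-150 is abundant in mature lymphocytes. Its mean scaled signals were 3540 in CD45+ cells, 313 in mTECs and 656 in cTECs. let-7d had 4647, 2145 and 1449, and let-7f had 4830, 2111 and 1435. The profiles of miR-222 and miR-150 were compared with the floor, and the mTEC means of both lay under the floor. miR-222 also stood on the floor on both cTEC arrays, so that its r sets CD45+ cells against values at or near the floor. Without the floor, miR-150 was higher in cTECs than in mTECs under this scaling. miR-222 had a mean of 556 in mTECs and was not detected in cTECs. That sets no order for it, since its mTEC values lay under the limit of cTEC replicate 2. The r of these miRNAs therefore does not show a likeness between the epithelial groups. The 8 arrays share their scaling and form 3 groups, so that r mixes differences between groups with those within them.

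The pair was set beside 13 other miRNAs that have been reported, in other cells, to act on Kit or on the CIP/KIP inhibitors Cdkn1a, Cdkn1b and Cdkn1c. All 13 were on the array and 12 were tested, as miR-193b was above background on no array. In mTECs against CD45+ cells 1 of the 12 was called higher, 8 lower and 3 did not pass. Of all 309 tested miRNAs, 28 were called higher and 46 (14.9%) lower. The median log2 difference of the list was -1.73, against 0 over all tested miRNAs, where the floor sets many differences to 0. miR-34a, a p53 target, was the one that rose, by 1.84 on the log2 scale (SE 0.14, limma adjusted p = 0.000166), from a mean scaled signal of 1837 to 6653. The largest fall was that of miR-181a, known for tuning T cell receptor sensitivity in thymocytes, at -3.67 (SE 0.48, limma adjusted p = 0.00171), from 13255 to 1053. These counts hold for the scaling over 65 probes. With the 6 arrays scaled alone, 2 of the 12 were called higher and 8 lower, where 72 of all 304 tested were called higher and 38 lower, and the median of the list was -1.11 against 0.13.

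In cTECs against CD45+ cells 0 of the 12 were called higher and 10 lower, where 33 of all 309 were called higher and 62 (20.1%) lower. The median of the list was -2.49. With the 5 arrays scaled alone, 0 of 11 were called higher and 11 lower, where 29 of all 208 tested were called higher and 59 lower. miR-17, a member of the growth-promoting miR-17-92 cluster, had a fitted difference of -3.12 (SE 0.10, limma adjusted p = 4.38e-06). Its mean scaled signals were 6758 in CD45+ cells and 761 in cTECs. Several of the list lay under the floor in cTECs, as miR-106b did at a mean of 564, so that the falls of the list in cTECs have no order. In mTECs against cTECs 9 of the 12 were called higher and 0 lower, where 50 (16.2%) of all 309 were called higher and 20 lower. The median of the list was 0.93. With only the 65 bright miRNAs tested, 16 were called higher and 22 lower. With the 5 arrays of that comparison scaled alone, 5 of the 12 were called higher and 0 lower, where 33 of all 283 tested were called higher and 18 lower. The largest fitted rise was that of miR-34a, at 3.40 (SE 0.16, limma adjusted p = 4.35e-05). Its cTEC signal, a mean of 469, lay under the floor, so that this difference is one from the floor and not from a measured cTEC level. miR-17 and miR-34a were each well above background on 7 of 8 arrays. The comparisons share arrays, and members of the list share clusters and seeds, so that these counts are not independent of each other.

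**Figure D5:**
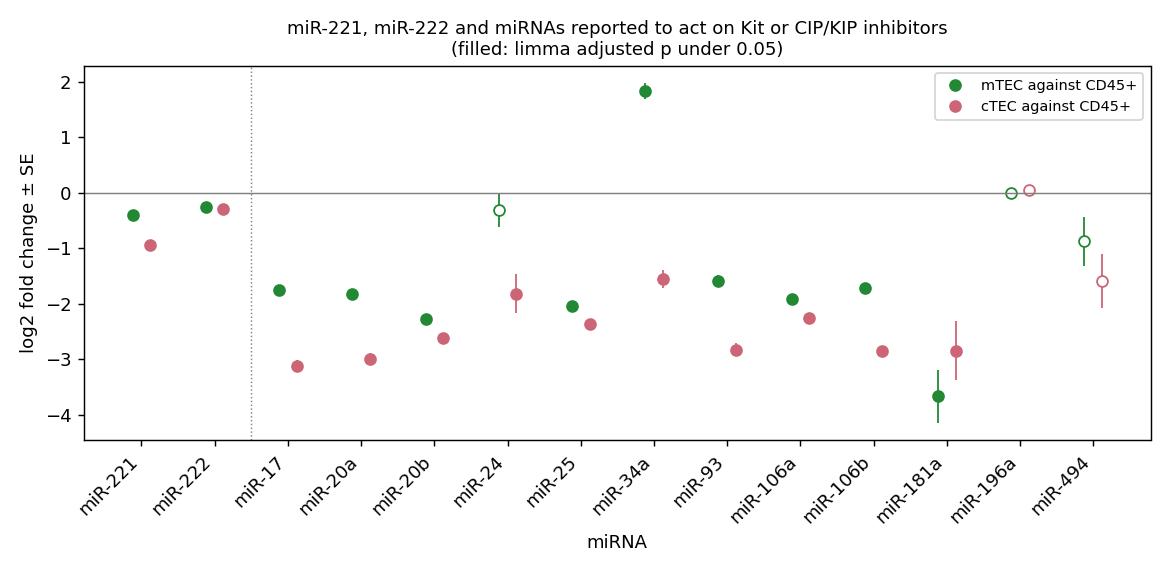
log2 fold changes ± SE against CD45+ cells in mTECs (green) and cTECs (red), for miR-221 and miR-222 at the left and for the 12 tested miRNAs of the list at the right of the dotted line. Filled points passed an adjusted p under 0.05 in limma. The differences of the pair lie between -0.94 and -0.26, and those of the list reach from -3.67 for miR-181a to 1.84 for miR-34a, both in mTECs.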

How the data were processed

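The authors deposited the scanner output of 8 Cy3 arrays, with the intensity of every spot raw and background-subtracted, and a quantile-normalised log2 table, which also holds their own fold changes and p-values, not used here. The file headers give Feature Extraction 10.7.3.1. The submitters' processing notes name limma. The deposited positions name no genome build and are not printed.

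The processed signal was analysed with limma 3.58.1 (R 4.3.3). Spots the scanner marked as outliers were dropped, arrays were scaled to a common 75th percentile of 65 probes, and spots were raised to a floor of 621 and averaged as log2. The floor is the highest of the limits of the 8 arrays and was chosen after the signals were known. Tested miRNAs had over 0.5 of their spots well above background on 2 or more arrays. lmFit and eBayes were run on all 8 arrays, with Benjamini-Hochberg adjustment over 309 miRNAs, of which 83 lay at the floor on every array. Group means ± SD are of the scaled signal without the floor. The labels call the samples biological replicates. The number of arrays limits the precision.

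The members and lists were chosen with earlier results of these data known. Named miRNAs were the pair, their opposite strands, the 3 with the highest r to each, and the called ones of the Kit and CIP/KIP list with the largest fitted rise and fall. miR-1928 was added for its seed. The planned test of the difference within the pair was not run for cTECs, since neither miRNA was well above background there. Normexp used the median spot signal, the column read here. Other scalings, floors, filters, backgrounds and blocks were tried.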

Additional observations from a re-analysis of the deposited data

How the results depend on the processing

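Detection uses the scanner's own marks and does not change with scaling or floor. The folds against the limits of the cTEC arrays rose with the scaling on all mouse probes to 9.52 and 4.03 (miR-221, CD45+ and mTEC) and 6.05 and 2.46 (miR-222), with no normalization to 13.1, 6.70, 8.29 and 4.09, and with quantile normalization to 3.29, 2.42, 2.29 and 1.23. They fell with the groups scaled alone, to 2.51, 1.73, 1.60 and 1.06. The filter on all 8 arrays left both untested. Floors just below the highest, and the groups scaled alone, were chosen after seeing the data.

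For mTEC against CD45+, miR-221 did not pass with no normalization (-0.96), normexp (-0.32) or the lowest floor (-0.40) and was reversed with the groups scaled alone (0.22). Without each array in turn it ranged from -0.54 to -0.084. miR-222 did not pass with no normalization (-1.02), normexp (-0.27), no filter (-0.26), the lowest floor (-0.45), the 2 groups alone (-0.26), the replicate block (-0.26) or the slide row as a block (-0.24), and was reversed with the groups scaled alone (0.16), with a range of -0.30 to -0.14 without each array in turn. For cTEC against CD45+, miR-222 did not pass with normexp (-0.52), no filter (-0.29), the 2 groups alone (-0.29), the replicate block (-0.31) or the groups scaled alone (-0.24), and ranged from -0.67 to -0.23 without each array in turn, while miR-221 ranged from -1.33 to -0.89. For mTEC against cTEC, miR-222 passed with no normalization (1.63), the deposited log2 table (0.26), the lowest floor (1.71) and floors at the next lower limits of the arrays (0.67 and 1.17), and was at 0 with the groups scaled alone, where all 5 arrays lay at the floor. It ranged from 0.0073 to 0.53 without each array in turn, and miR-221 from 0.44 to 1.25.

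The difference of miR-222 minus miR-221 between mTEC and CD45+ was reversed under quantile normalization (-0.31), and was -0.054 with the percentile over all mouse probes, no normalization, the 3 lower floors and the groups scaled alone; without each array in turn it ranged from -0.054 to 0.24. The cause of these changes was not tested, other than that a lower floor moves values that lay on the higher one.

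The counts of called miRNAs, 74, 95 and 70 for mTEC against CD45+, cTEC against CD45+ and mTEC against cTEC, became 118, 250 and 201 with normexp, 31, 53 and 38 with the filter on all 8 arrays, and 140, 224 and 129 with the lowest floor. The deposited log2 table gave 121 for the first, the lower of those 2 floors 154 and 109 for the others, and the percentile over all mouse probes 39 for the last. Without each array in turn the counts ranged from 66 to 84, from 82 to 168 and from 57 to 147, the highest of the latter both without cTEC replicate 1. Calls split into 28 higher and 46 lower, 33 and 62, and 50 and 20. With the percentile over all mouse probes they split into 18 and 92, 6 and 114, and 38 and 1, with no normalization into 2 and 111 (cTEC against CD45+) and 73 and 0 (mTEC against cTEC), with quantile normalization into 32 and 37 (mTEC against cTEC), with the groups scaled alone into 72 and 38 (mTEC against CD45+), with normexp into 67 and 51, 197 and 53, and 45 and 156, and with the lowest floor into 76 and 64, 139 and 85, and 72 and 57. Without cTEC replicate 1, with the lone cTEC array assumed to vary like other groups, they split into 109 and 59 for cTEC against CD45+ and 48 and 99 for mTEC against cTEC, and without cTEC replicate 2 into 66 and 62, and 48 and 49. The median difference over all tested miRNAs moved by over 0.1 with normexp (0.35, 1.38 and -0.97), the lowest floor (0.45, 0.86 and -0.33), no normalization (-0.43 and 0.41 in the cTEC comparisons), the percentile over all mouse probes (-0.12 for cTEC against CD45+), the next lower floors (0.13 for cTEC against CD45+ with the first, 0.36 and -0.20 in the cTEC comparisons with the other), the filter on all 8 arrays (0.47 and -0.25 in the cTEC comparisons, with the pair untested) and the groups scaled alone (0.13 for mTEC against CD45+). Relative to these medians the differences of the pair kept their sign, except with the groups scaled alone, where they were 0.091 and 0.037.

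With 2 or 3 arrays a group, deviations of same-numbered arrays across groups (correlations -0.23 to 0.28) cannot settle pairing. With the replicate block, the differences of miR-221 were -0.40, -0.99 and 0.59 and kept their calls. Detection was limited by the dim cTEC arrays, of which there were 2.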

Other observations

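In the log2 table of the authors, which was made without background subtraction, miR-221 had means of 11.92 in CD45+ cells, 11.76 in mTECs and 11.33 in cTECs. miR-222 had means of 11.75, 11.59 and 11.32. On these values limma gave differences of -0.17 for miR-221 and -0.16 for miR-222 in mTECs against CD45+ cells, and of -0.60 and -0.42 in cTECs against CD45+ cells.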
